A study of Mus musculus with 12 samples.

Results

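A set of 8 genes that T cells are not known for was measured in sorted regulatory T (Treg) cells: *Daw1* and *Dnah7a* of motile cilia, *Cep112* of the centrosome, *Map2* and *Igsf9b* of neurons, the glycosyltransferase gene *B3galt5*, and *Hgf* and *Pla2g2d*, which encode a secreted growth factor and a secreted lipase. They were picked by name from 55453 genes of the count table because their level was higher in knockout than in floxed libraries, so that difference is given as a description with no test. All 8 were among the 12411 genes that passed the filter on low counts. Treg cells are CD4+ T cells that depend on the transcription factor Foxp3 and hold immune responses in check, and CNS4 is an enhancer far from the start of *Foxp3*, an X-linked gene. The libraries came from 4 groups of 3 on the C57BL/6 background: female CNS4 knockout (KO) heterozygotes, female CNS4 floxed heterozygotes, male CNS4 knockouts, and male CNS4 floxed mice, which the labels call wild type. A floxed allele carries recombination sites around the enhancer and keeps the enhancer until a Cre recombinase removes it. The cells of all 4 groups were sorted as CD4+Foxp3+ and lysed without treatment, so every group shares that gate. The Cre line, the ages and the way Foxp3 was seen in the sorter were not given in the labels, and neither was whether each library was a separate animal, so p-values measure only how far these samples spread, which may be technical. All females were heterozygotes, so sex and zygosity cannot be told apart.

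As background, a cilium is a microtubule rod that grows from a centriole, and motile cilia beat by axonemal dynein motors, which are assembled in the cytoplasm with the help of dedicated factors. Lymphocytes carry no motile cilium, but they keep a centrosome, which moves to the contact site with an antigen-presenting cell, and they use parts of the intraflagellar transport machinery there. In neurons, microtubule-associated proteins stabilise dendrites and adhesion proteins of the immunoglobulin family hold synapses together. Secreted phospholipases release fatty acids from membrane lipids, from which prostaglandins and leukotrienes are made.

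The promoters of 4 of the genes are shown because they hold a letter match to one of the motifs searched. They are the first listed start of each gene in RefSeq, build GRCm38.p6, from 250 bases before to 50 bases after the start, read 5′ to 3′ on the gene's strand, and the capitals mark the match. *Daw1* lies at chr1:83159505-83159804, *Cep112* at chr11:108425016-108425315, *B3galt5* at chr16:96235551-96235850 and *Hgf* at chr5:16553245-16553544, all on the plus strand.
Daw1: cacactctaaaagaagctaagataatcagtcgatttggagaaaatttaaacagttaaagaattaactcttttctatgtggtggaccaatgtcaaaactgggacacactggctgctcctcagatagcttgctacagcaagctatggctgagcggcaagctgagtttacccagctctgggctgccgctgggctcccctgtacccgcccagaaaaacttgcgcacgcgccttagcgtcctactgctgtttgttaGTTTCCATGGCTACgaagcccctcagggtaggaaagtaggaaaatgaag
Cep112: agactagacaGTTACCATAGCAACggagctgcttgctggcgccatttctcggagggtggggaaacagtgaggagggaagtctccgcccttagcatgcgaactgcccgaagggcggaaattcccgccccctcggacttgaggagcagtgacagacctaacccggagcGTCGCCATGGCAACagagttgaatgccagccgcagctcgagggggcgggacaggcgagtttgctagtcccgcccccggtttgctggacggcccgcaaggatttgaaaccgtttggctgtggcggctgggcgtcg
B3galt5: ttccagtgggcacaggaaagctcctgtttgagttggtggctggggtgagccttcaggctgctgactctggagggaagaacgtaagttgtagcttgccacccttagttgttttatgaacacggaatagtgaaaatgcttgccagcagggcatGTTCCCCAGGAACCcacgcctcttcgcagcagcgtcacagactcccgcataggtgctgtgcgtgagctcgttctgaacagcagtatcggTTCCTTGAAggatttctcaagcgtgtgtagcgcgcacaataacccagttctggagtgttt
Hgf: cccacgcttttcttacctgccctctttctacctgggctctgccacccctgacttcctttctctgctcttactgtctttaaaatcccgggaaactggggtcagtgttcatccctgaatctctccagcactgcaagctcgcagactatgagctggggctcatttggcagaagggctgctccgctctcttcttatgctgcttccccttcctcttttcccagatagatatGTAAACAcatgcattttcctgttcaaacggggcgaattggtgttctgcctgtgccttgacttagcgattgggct

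RefSeq windows were found for 7 of the 8 genes, 13 windows in all, and *Igsf9b* had none in the table used here. Each motif was searched on both strands. The X-box bound by RFX factors, written as GTTNCC, any 2 bases and GGNAAC, had no exact match in these windows, against 0.451% of 32841 promoters in the table. With at most 1 mismatch, a setting chosen after the promoters were seen, it matched in *Daw1*, *Cep112* (at 2 places) and *B3galt5*, against 2.56% of all promoters. The STAT5 motif TTCNNNGAA matched in *B3galt5*, against 8.3% of all promoters, and it shares no base with the X-box match there. The forkhead motif TGTTTAC matched in *Hgf* on the reverse strand, against 3.65%, and the AP-1 motif TGANTCA, held by 7.81% of all promoters, was in none of the 13 windows. These are letter matches and say nothing of binding.

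Reads in genes ran from 12423335 to 30244505 per library with a median of 14596845. Between 95.8 and 97.2% of the reads in protein-coding genes lay in genes of the plus strand. Minus-strand genes that T cells use were low in the same way: *Cd3e* had 20.4 to 36 CPM, against 776 to 1220 CPM for its plus-strand partner *Cd3d*, and *Cd4*, on which the cells were sorted, had 4.76 to 12 CPM. A count near 0 of a minus-strand gene is therefore no sign that its RNA was absent. *Dnah7a* is the only one of the 8 on the minus strand, so its level cannot be set beside those of the others. *Foxp3*, the gene that CNS4 regulates, had 685, 1820 and 825 CPM (counts scaled to library size) in female KO libraries 1, 2 and 3, against 2580 to 2660 CPM in female floxed libraries, and 1460 to 2040 CPM in male KO libraries, against 2230 to 2670 CPM in male floxed libraries. The counts do not show the deletion of the enhancer itself. Female KO library 2 stood apart from the other two of its group, and values without it, or without libraries 1 and 3, are given where they matter. Over both sexes *Foxp3* had a log2 fold change of -0.86 ± 0.22 (SE, adjusted p = 0.06, edgeR's quasi-likelihood test, Benjamini-Hochberg adjusted). In the female and the male comparison its log2 fold change was -1.24 ± 0.31 and -0.48 ± 0.30 by the same edgeR test (adjusted p = 0.103 and 0.835).

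**Figure D1:**
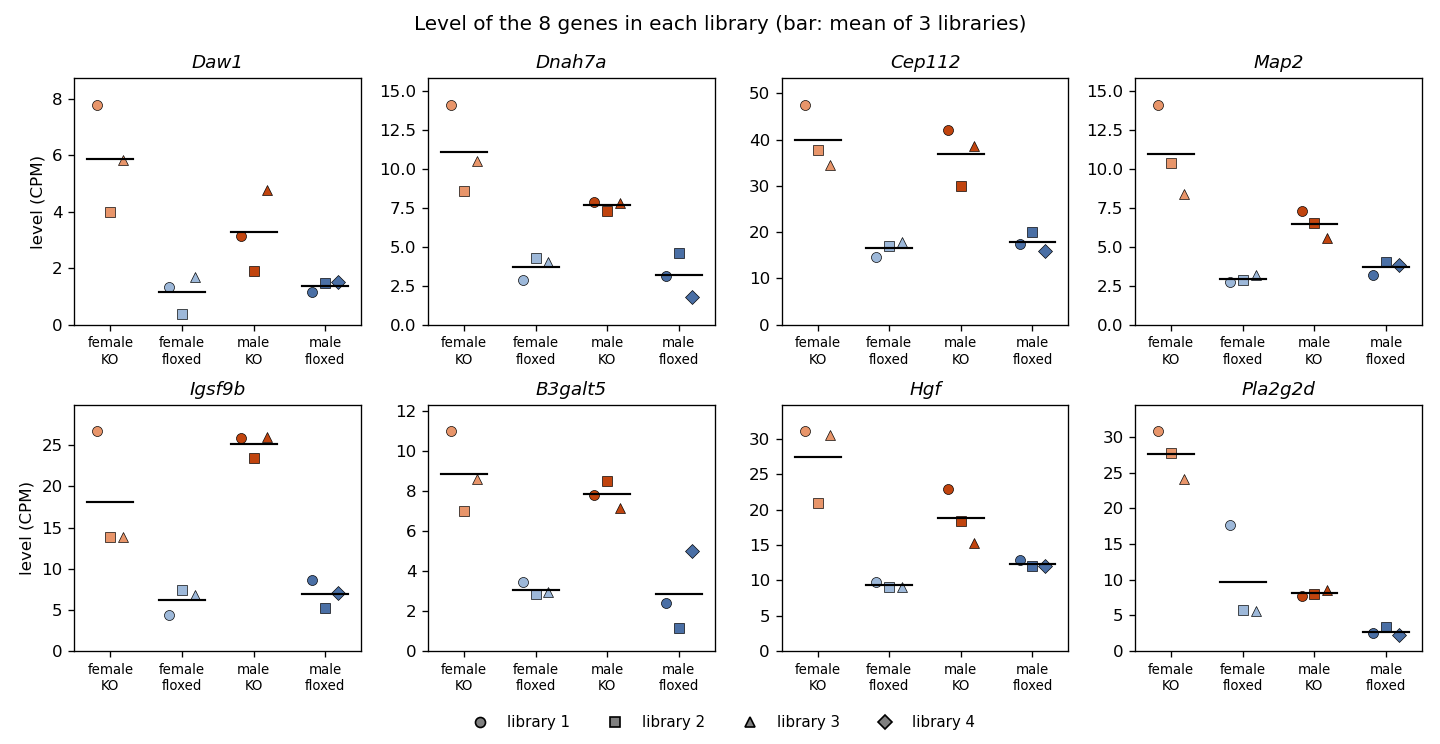
Level in CPM (y axis, linear from 0, own scale in each panel) of the 8 genes in female KO, female floxed, male KO and male floxed libraries (x axis); points are single libraries, their shape gives the library number, and bars are means of 3 libraries. In each panel and each sex, the 3 KO points lie above the 3 floxed points, and female KO library 1 is the highest of its group in 8 of 8 panels.

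*Daw1* encodes a repeat protein that helps outer dynein arms reach the cilium. It had 7.79, 4 and 5.83 CPM in female KO libraries 1, 2 and 3, against 1.35, 0.378 and 1.71 CPM in female floxed libraries 1, 2 and 3. Male KO libraries 1, 2 and 3 had 3.14, 1.92 and 4.79 CPM, against 1.17, 1.47 and 1.53 CPM in male floxed libraries 1, 2 and 4. The groups did not overlap in either sex, though in males the lowest KO library was only 1.25 times the highest floxed one. Its log2 fold change was 2.33 ± 0.50 (SE) in females and 1.24 ± 0.49 in males, with raw counts from 5 to 129, the lowest of the 8 genes.

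*Dnah7a* encodes an axonemal dynein heavy chain of the inner arm. It had 14.1, 8.58 and 10.5 CPM in the female KO libraries, against 2.84, 4.30 and 4.04 CPM in the female floxed ones, here and below in the same order of libraries. In males it had 7.86, 7.28 and 7.82 CPM in KO libraries, against 3.10, 4.58 and 1.81 CPM in floxed ones. The male KO libraries lay close together, with a coefficient of variation of 4.28%, while the male floxed ones spread with one of 43.8%. The log2 fold change was 1.57 ± 0.33 in females and 1.28 ± 0.33 in males. Its near-identical copies on the plus strand had few reads, 0 to 8 per library for *Dnah7b* and 2 to 19 for *Dnah7c*, against 26 to 233 for *Dnah7a*. Reads shared between the copies may have been lost in counting, so the level of *Dnah7a* is uncertain.

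*Cep112* encodes a coiled-coil protein of the centrosome and was the most deeply counted of the 8, with 218 to 1019 reads. It had 47.5, 37.7 and 34.6 CPM in female KO libraries, against 14.7, 17.0 and 17.8 CPM in female floxed libraries. Male KO libraries had 42.1, 30.0 and 38.7 CPM, against 17.4, 20.1 and 16.0 CPM in floxed libraries. The genotypes were apart by at least 1.95 times in females and 1.49 times in males, and the 2 sexes gave nearly the same levels. This gave a log2 fold change of 1.28 ± 0.19 in females and 1.05 ± 0.19 in males. The annotation places 80 of its exonic bases opposite *Cep112os1*, which had 0 to 7 reads. *Cep112os1* is on the minus strand, so this count shows nothing of its level.

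*Map2* encodes the microtubule-associated protein that marks dendrites of neurons. It had 14.1, 10.4 and 8.41 CPM in female KO libraries, against 2.77, 2.87 and 3.18 CPM in female floxed libraries. The male levels were 7.30, 6.55 and 5.55 CPM in KO libraries, against 3.17, 4.04 and 3.83 CPM in floxed libraries. All 3 female KO libraries were above all 3 male KO libraries, while the floxed libraries of the sexes lay close to each other. KO over floxed, the log2 fold change was 1.89 ± 0.23 in females and 0.81 ± 0.23 in males. Of its exonic bases, 124 lie opposite Gm10558, a minus-strand gene with 0 to 2 reads, a count that shows nothing of its level.

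*Igsf9b* encodes an adhesion protein of inhibitory synapses. It had 26.7, 13.9 and 13.9 CPM in female KO libraries, against 4.39, 7.48 and 6.86 CPM in female floxed libraries. In males it had 25.9, 23.5 and 26 CPM in KO libraries, against 8.69, 5.28 and 7.02 CPM in floxed libraries. Female KO library 1 was level with the male KO libraries and the other two were lower, and the lowest of the group was 1.86 times the highest female floxed library. The log2 fold change was 1.54 ± 0.31 in females and 1.84 ± 0.31 in males, and the female value was 1.15 without female KO library 1.

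*B3galt5* encodes an enzyme that adds galactose to the sugar chains of glycolipids and glycoproteins. It had 11, 7.01 and 8.63 CPM in female KO libraries, against 3.44, 2.87 and 2.94 CPM in female floxed libraries. Male KO libraries reached 7.80, 8.53 and 7.18 CPM, against 2.41, 1.16 and 5.01 CPM in floxed libraries. The floxed males varied the most, with library 4 well above libraries 1 and 2. On the log2 scale the fold change was 1.52 ± 0.41 in females and 1.45 ± 0.41 in males, and the male value was 2.12 without male floxed library 4.

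*Hgf* encodes hepatocyte growth factor, a ligand made mainly by mesenchymal cells that acts through the receptor Met. It had 31.1, 20.9 and 30.5 CPM in female KO libraries, against 9.79, 9.14 and 9.12 CPM in female floxed libraries. The male KO libraries held 22.9, 18.4 and 15.3 CPM, against 12.9, 12.1 and 12.1 CPM in floxed libraries. The floxed libraries were tight in both sexes, with a coefficient of variation of 4.11% in females and 3.72% in males, and the smallest gap between genotypes was 1.18 times, in males. Its log2 fold change was 1.56 ± 0.21 in females and 0.61 ± 0.20 in males. It shares 484 exonic bases of its strand with Gm43489, which had 0 to 7 reads. *Met* had 0 to 50 reads per library and did not pass the filter.

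*Pla2g2d* encodes a secreted phospholipase A2 that is known in mice from dendritic cells and macrophages of lymphoid tissue, where it restrains inflammation. It had 30.8, 27.8 and 24.1 CPM in female KO libraries, against 17.6, 5.81 and 5.69 CPM in female floxed libraries. In males it had 7.74, 8.07 and 8.55 CPM in KO libraries, against 2.48, 3.41 and 2.3 CPM in floxed libraries. The genotypes did not overlap within a sex, but female floxed library 1 was above all male KO libraries. The log2 fold change was 1.51 ± 0.39 in females and 1.57 ± 0.41 in males, and the female value was 2.27 without female floxed library 1.

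In 8 of the 8 genes every KO library was above every floxed library within both sexes, as the choice of the genes fixed, where 3.97% of the 12411 tested genes had that order in both sexes, 15.3% in females and 8.2% in males. Over all tested genes, edgeR with Benjamini-Hochberg adjustment at 0.05 called 2.68% higher in KO over both sexes, 0.185% in females and 0.0242% in males, and calls of the 8 genes are not given because these values picked them. Over both sexes their median log2 fold change was 1.45, against -0.02 over all tested genes. They ranked between 47 (*Daw1*) and 322 (*Hgf*) among the 12411 genes ordered by that fold change. After the removal of female KO libraries 1 and 3 the 8 log2 fold changes were 0.89 to 1.55, and after the removal of library 2 alone they were 1.17 to 1.90.

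Per length of annotated exons, the 7 plus-strand genes kept one order of mean levels in female KO and female floxed libraries, while in males some neighbours in the order changed places. In female KO libraries, mean CPM per kilobase was 12.3 ± 1.5 (SD, n = 3) for *Pla2g2d*, 6.47 ± 1.09 for *Cep112*, 3.83 ± 0.79 for *Hgf* and 2.74 ± 0.88 for *Daw1*. *B3galt5*, *Igsf9b* and *Map2* were lower, at 1.44 ± 0.33, 1.09 ± 0.44 and 0.665 ± 0.175, and *Dnah7a* of the minus strand, not ranked here, was at 0.865 ± 0.218. In female floxed libraries *Pla2g2d* at 4.32 ± 3.04 and *Cep112* at 2.67 ± 0.26 CPM per kilobase lay within each other's spread. In male KO libraries *Cep112* was first with 5.99 ± 1.01 CPM per kilobase and *Pla2g2d* followed with 3.62 ± 0.18, and *Hgf* was at 2.62 ± 0.53. *Cep112* was also first in male floxed libraries with 2.89 ± 0.34, but there *Hgf* at 1.72 ± 0.06 came before *Pla2g2d* at 1.22 ± 0.27 CPM per kilobase. In female KO libraries *Hgf* and *Daw1* lay within 1 SD of each other's interval, as did the neighbours in the order from *B3galt5* downwards, while *Pla2g2d*, *Cep112* and *Hgf* were apart. On the same scale *Foxp3* had 243 ± 136 and 575 ± 9.57 CPM per kilobase in female KO and floxed libraries, so the 7 plus-strand genes were at a small share of the level of the gene that defines the cells.

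**Figure D2:**
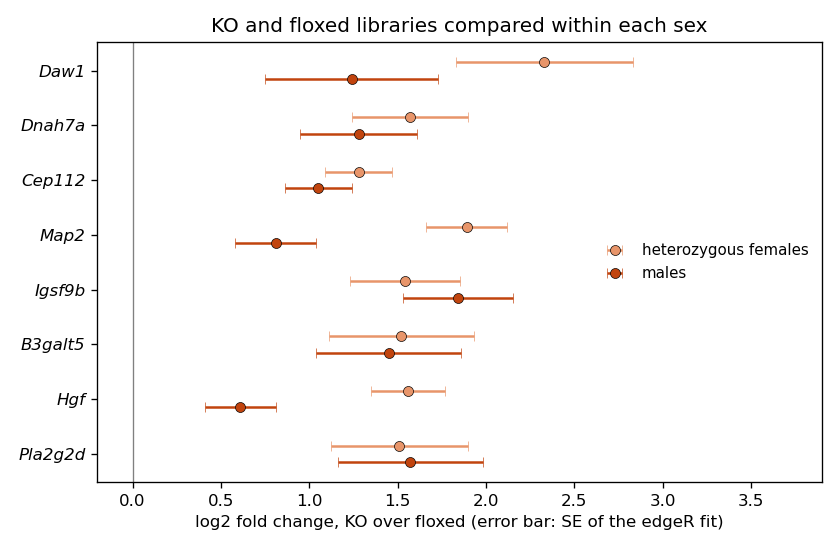
Log2 fold change of KO over floxed libraries (x axis) for each of the 8 genes (y axis), with heterozygous females above males; points are edgeR estimates from 3 libraries against 3 and bars are their SE. The bars of *Daw1*, *Map2* and *Hgf* do not touch between the sexes, with 2.33 against 1.24, 1.89 against 0.81 and 1.56 against 0.61, while those of the other 5 genes overlap. Bars of 1 SE that do not touch are no test of a difference.

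The female minus the male KO effect is made of the same within-sex differences by which the genes were picked, so it too is given for the 8 genes as a description, with no p. Its largest values among the 8 were those of *Daw1*, 1.09 ± 0.69 (SE), *Map2*, 1.08 ± 0.32, and *Hgf*, 0.95 ± 0.29, on the log2 scale. Without female KO library 2 the difference was 1.11 ± 0.25 for *Hgf* and 1.11 ± 0.33 for *Map2*, and without female KO libraries 1 and 3 it was 0.56 ± 0.31 for *Hgf* and 1.01 ± 0.33 for *Map2*. For *Dnah7a*, *Cep112*, *Igsf9b*, *B3galt5* and *Pla2g2d* the differences were between -0.30 and 0.29, with an SE of 0.27 to 0.57. Over all 12411 tested genes edgeR called 0 (0%) in this comparison, 339 had an unadjusted p under 0.05 and DESeq2 also called 0, while 1108 were called without female KO library 2.

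Among floxed libraries, female minus male, edgeR with Benjamini-Hochberg adjustment called 4 of the 12411 genes (0.0322%) and 0 of the 8. An unadjusted p under 0.05 by edgeR was found for 762 of the 12411 genes and 1 of the 8. DESeq2 called 59 of all genes and 1 of the 8. That gene was *Pla2g2d*, which averaged 9.69 ± 6.82 CPM in female floxed libraries and 2.73 ± 0.60 CPM in male floxed libraries (SD, n = 3 each). Its log2 difference was 1.83 ± 0.41 (SE, adjusted p = 0.336 by edgeR and 0.00864 by DESeq2), and it was 1.06 without female floxed library 1. The floxed libraries also enter the KO difference by which the genes were picked, so these p-values are not independent of that choice. The other 7 genes differed by -0.40 (*Hgf*) to 0.24 (*Dnah7a*) between floxed females and floxed males.

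*Pla2g2d* was higher in females in both genotypes, and a test of the female minus male difference over both genotypes was added after its values were seen. The p-values given here for *Pla2g2d* take no account of that choice. Its log2 difference was 1.79 ± 0.28 (SE, adjusted p = 0.0299, edgeR with Benjamini-Hochberg adjustment), in a comparison that called 0.411% of all tested genes. The call was lost in 10 of 21 alternatives, with adjusted p from 8.76e-07 to 0.273 over all 21 while the difference stayed between 1.41 and 2.01. It was lost by edgeR without any 1 of male KO libraries 2 and 3, male floxed libraries 1, 2 and 4, and female KO libraries 1 and 3, where the adjusted p was 0.0559 to 0.0976. For the other 7 genes the adjusted p by edgeR was 0.253 or more.

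Markers of macrophages and dendritic cells, a list of 27 genes, were present in all libraries in spite of the gate. Their summed level was 962, 1190 and 1890 CPM in female KO libraries 1, 2 and 3, against 1430, 339 and 719 CPM in female floxed libraries. In males it was 294, 1890 and 465 CPM in KO libraries, against 120, 177 and 1710 CPM in floxed libraries 1, 2 and 4. Of the list, 13 genes are on the minus strand, among them *Cd209a*, which was at 0 in every library. The 19 tested genes of the list had a median log2 fold change of 0.7 in KO over both sexes. Over all tested genes it was -0.02, and edgeR called 0 of the 19. Female floxed library 1, the highest of its group in these markers, was also the highest in *Pla2g2d*, and male floxed library 4, with 1710 CPM of markers, had the lowest *Pla2g2d* level of all libraries at 2.3 CPM. The sum covers genes that differ in pattern. In male floxed library 4 it was made up largely of *Csf1r* and *Adgre1*, with 464 and 441 CPM. *Mrc1*, a mannose receptor of macrophages named here after its values were seen, had 162, 183 and 320 CPM in female KO libraries, against 314, 56.8 and 145 CPM in female floxed libraries. Its level in males was 44.8, 29.2 and 36.6 CPM in KO libraries, against 8.97, 23.3 and 18.8 CPM in floxed libraries 1, 2 and 4. Both *Mrc1* and *Pla2g2d* were highest of their group in female floxed library 1. In male floxed library 4 *Mrc1* lay between the other libraries of its group, while *Pla2g2d* was the lowest of all libraries. The part of such cells in the *Pla2g2d* levels was not tested marker by marker. With the mean level of the whole list as a covariate, the log2 fold change of *Pla2g2d* over both sexes was 1.48 ± 0.31 and those of all 8 genes were 1.09 to 1.81. The sex difference of *Pla2g2d* was 1.69 ± 0.37 with that covariate, with an adjusted p of 0.0767 by edgeR.

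**Figure D3:**
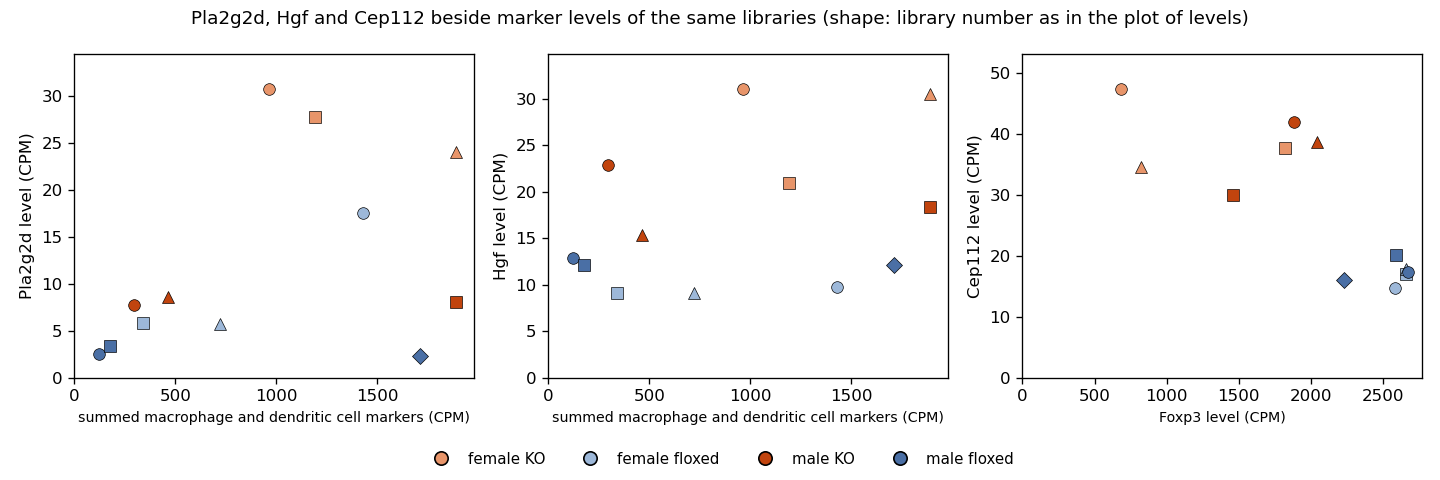
Level of *Pla2g2d*, *Hgf* and *Cep112* in CPM (y axes) against the summed CPM of macrophage and dendritic cell markers (left and middle x axes) or the *Foxp3* level in CPM (right x axis); each point is 1 library, coloured by group and shaped by library number. Male floxed library 4 combines 1710 CPM of summed markers with 2.3 CPM of *Pla2g2d*. *Mrc1*, a marker within the sum named after its values were seen, had 18.8 CPM there, against 8.97 and 23.3 CPM in male floxed libraries 1 and 2. The KO libraries have more *Cep112* than the floxed ones, as the choice of the gene fixed. *Foxp3* was at 685 to 2040 CPM in KO and at 2230 to 2670 CPM in floxed libraries. These ranges do not overlap, so genotype and *Foxp3* level cannot be told apart here.

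Markers of ciliated cells and neurons could be read only in part, since 10 of 16 and 8 of 17 are on the minus strand. Those at 0 in every library were all minus-strand genes, *Foxj1*, *Dnah9*, *Tekt1* and *Tmem212* of ciliated cells and *Rbfox3*, *Syt1*, *Elavl4*, *Gap43*, *Dcx* and *Syn1* of neurons, so their zeros do not show that such cells were absent. None of the 6 plus-strand ciliated markers or the 9 plus-strand neuron markers was at 0 throughout, but several had few reads. Reads per library were 0 to 3 for *Sntn*, 0 to 7 for *Mcidas* and *Hydin*, 0 to 12 for *Dnah5*, 2 to 21 for *Cfap126* and 390 to 794 for *Spag17*. For neurons they were 0 to 4 for *Snap25*, 0 to 6 for *Stmn2* and *Slc17a7*, 1 to 18 for *Gad2* and 0 to 33 for *Snhg11*. *Gad1* had 8 to 71, *Nefl* 1 to 116, *Tubb3* 35 to 120 and *Syp* 75 to 635. The summed level of the ciliated list was 33.7 to 42.9 CPM in female KO, 28.0 to 34.4 CPM in female floxed, 30.4 to 33.6 CPM in male KO and 27.6 to 36.2 CPM in male floxed libraries. Most of that sum was *Spag17*, a plus-strand gene of the ciliary central pair, with 26.9 to 40.4 CPM. The sum of the neuron list was 10.1 to 24.6 CPM in female KO, 25.7 to 37.6 CPM in female floxed, 26 to 34.5 CPM in male KO and 32.8 to 38.7 CPM in male floxed libraries. The summed level of 15 fibroblast and endothelium markers, of which the minus-strand gene *Plvap* was at 0 and whose cells can make Hgf, was 51.4 to 234 CPM in female KO, 37.5 to 77.9 CPM in female floxed, 52.7 to 258 CPM in male KO and 43.6 to 134 CPM in male floxed libraries, and its part in the *Hgf* levels was not tested. Markers of T and Treg cells summed to between 10500 and 13500 CPM. In such bulk samples, fewer cells of a type and less RNA per cell cannot be told apart.

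The GC content of the 8 genes ran from 39.9% in *Hgf* to 51.0% in *Igsf9b*, and 6 of 8 were below the median of 48.7% over tested genes. Across genes, which are not independent, the deviation of a library from the mean of all libraries fell with GC content in the 3 female KO libraries, with Spearman's rho of -0.398, -0.126 and -0.317, against -0.0819, 0.0559 and 0.201 in female floxed libraries. In males rho was -0.0789, 0.0382 and 0.41 in KO libraries, against 0.153, 0.251 and 0.485 in floxed libraries. After a trend on GC content and length was removed, the log2 fold changes of the 8 genes over both sexes were 1.01 to 1.85.

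Most genes of the same machinery were not called in KO against floxed. Of 446 listed genes in 9 lists, the 8 members left out, 237 were tested over both sexes by edgeR with Benjamini-Hochberg adjustment, and 14 were higher (5.91%) and 2 lower (0.844%) in KO, where 2.68% of all tested genes were higher and 0.637% lower. Of the listed genes, 179 of 228 on the plus strand were tested and only 57 of 216 on the minus strand. Without female KO libraries 1 and 3 the number called was 1, and without female KO library 2 it was 61, of which 27 were higher and 34 lower. No single list had a median log2 fold change beyond -0.14 to 0.19, against -0.02 over all tested genes.

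Among axonemal dynein and motile cilium genes, 37 of 101 were tested and 2 rose. *Lrguk*, needed for sperm tail growth in mice, averaged 2.21 ± 0.53 and 0.532 ± 0.458 CPM in female KO and floxed libraries and 0.831 ± 0.155 and 0.214 ± 0.116 CPM in male KO and floxed libraries (SD, n = 3 each). At this very low level it gave a log2 fold change of 1.95 ± 0.41 (SE), with an adjusted p of 0.0299 by edgeR. *Lrguk* passed the filter on low counts only through the KO libraries, where it was high, so the filter itself favoured a rise. *Ccdc40*, known from Chlamydomonas as part of the ruler that spaces dynein arms, had a log2 fold change of 0.59 ± 0.13 (adjusted p = 0.0343 by edgeR). Of the intraflagellar transport and BBSome genes, 38 were tested and 3 rose: *Dync2li1*, a light intermediate chain of the retrograde motor, by 0.93 ± 0.17, *Ift43* by 0.89 ± 0.17 and *Ift22* by 0.50 ± 0.12 on the log2 scale.

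Of 44 tested centrosome and centriole genes, *Cep55*, which acts in the last step of cell division, rose by 1.04 ± 0.18, *Stil*, a centriole duplication factor, by 0.98 ± 0.19 and *Ccp110*, which caps centrioles, by 0.45 ± 0.10, and *Cep95* fell by 0.39 on the log2 scale. Of 20 tested genes of the microtubule and neuronal cytoskeleton list, 3 rose, namely *Stmn1*, a tubulin-binding protein that is also high in dividing cells, by 0.79 ± 0.13, *Dclk1*, a doublecortin-like kinase, by 0.97 ± 0.23 and *Mapre2*, a plus-end binding protein, by 0.30 ± 0.07. Of 12 tested neuronal adhesion genes 1 passed, *Igsf3*, which fell by 0.75 on the log2 scale and averaged 44 ± 8.85 CPM in female KO libraries and 74.4 ± 3.5 CPM in female floxed libraries (SD, n = 3 each).

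Of 26 tested glycosyltransferase genes, 2 rose. *Fut7*, which makes the selectin ligand sialyl Lewis x, rose by 0.99 ± 0.18 and *B3gnt5*, which starts lacto-series glycolipids, the chains that B3galt5 can extend, by 0.68 ± 0.12 on the log2 scale. Of 14 tested genes of the phospholipase A2 list none was called by edgeR, 4 had an unadjusted p under 0.05 and DESeq2 called 1. Over all 12411 tested genes, 2512 had an unadjusted p under 0.05 by edgeR and DESeq2 called 1129. The smallest p of the phospholipase A2 list was that of *Pla2g16*, with a log2 fold change of 0.35 ± 0.09 (adjusted p = 0.0736 by edgeR). Downstream of phospholipases, 1 of 18 tested eicosanoid genes rose: *Ptger2*, a prostaglandin E receptor, averaged 201 ± 10.8 CPM in female KO libraries and 119 ± 5.16 CPM in female floxed libraries, and 202 ± 5.24 CPM in male KO libraries and 129 ± 12.5 CPM in male floxed libraries (SD, n = 3 each). KO over floxed this was 0.70 ± 0.07 on the log2 scale (SE), with an adjusted p of 0.00325 by edgeR. Of 28 tested genes of HGF activation and MET signalling none was called by edgeR. In that list 4 had an unadjusted p under 0.05 and DESeq2 called 2, beside the same 2512 and 1129 of all 12411 tested genes. *Src* had the smallest p of the list with a log2 fold change of 1.11 ± 0.33 (adjusted p = 0.0947 by edgeR).

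**Figure D4:**
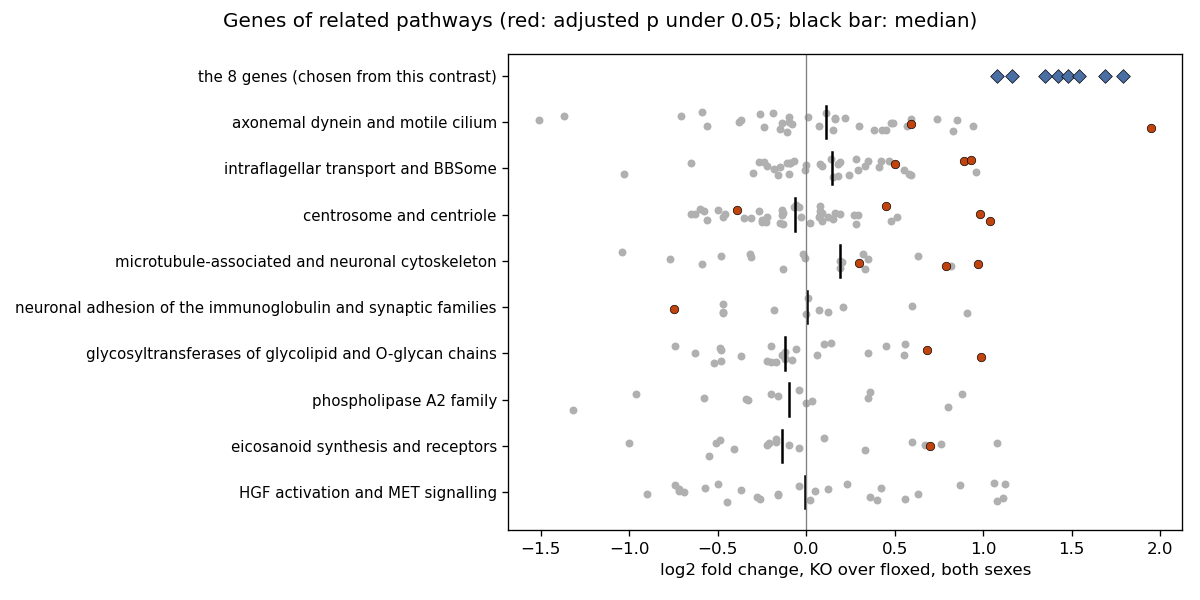
Log2 fold change of KO over floxed libraries over both sexes (x axis) for the tested genes of 9 lists (rows), with the 8 described genes in the top row; each point is 1 gene, red points have an adjusted p under 0.05 by edgeR, and black bars are list medians. The medians of the lists lie between -0.14 and 0.19 and 16 of 237 points are red.

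Of the genes next to the 8 on the chromosome, 4 passed the filter and 1 was called. *Ccl20*, the ligand of the chemokine receptor Ccr6 and the neighbour of *Daw1* on the same strand, had 7.30, 2.07 and 3.54 CPM in female KO libraries, against 0.540, 1.43 and 0.367 CPM in female floxed libraries. In males it had 3.65, 2.05 and 3.27 CPM in KO libraries, against 0.897, 0.388 and 0.974 CPM in floxed libraries. The genotypes did not overlap in either sex, and the log2 fold change over both was 2.23 ± 0.42 (SE, adjusted p = 0.0205 by edgeR). *Stk17b*, beside *Dnah7a*, had a log2 fold change of 0.28 ± 0.23, and beside *Cep112* that of *Apoh* was -0.86 ± 0.59 and that of *Axin2* 0.12 ± 0.21, with adjusted p of 0.496, 0.421 and 0.771 by edgeR. Of the other 12 neighbours, 7 on the plus strand had at most 8 reads in any library, and 5 on the minus strand were at 0, which shows nothing of their level.

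The shape of each gene's profile over the 12 libraries was compared with that of 8693 other genes. The measure was the root mean square difference of log2 CPM after centring, where 0 is an identical profile. The genes were picked for a higher level in KO than in floxed libraries, and that difference is part of each profile. The choice of the genes therefore favoured partners that were also higher in KO. The partners named here and in the next paragraph had KO over floxed log2 fold changes over both sexes of 0.63 (*Chp2*) to 1.58 (Gm13938). Likeness beyond the shared KO difference was not tested. *Cep112* had the closest partners, *Zcchc18* at 0.13, *Sdcbp2* at 0.15 and *Cldnd1* at 0.18, against a median of 0.71 over all candidates. The closest to *Hgf* were *Ccne2* (cyclin E2) at 0.23, *Prim1* (a DNA primase subunit) at 0.24 and the minus-strand gene *Psat1* at 0.24, and to *Map2* they were F830016B08Rik at 0.26, *Kif15* (a mitotic kinesin) at 0.30 and *Orc1* at 0.31. *Il10*, the anti-inflammatory cytokine, was closest to *Dnah7a* at 0.31, followed by the phosphatase gene *Ptpn13* at 0.32 and Gm28942 at 0.38. *Ptpn13* was also among the closest to *Igsf9b*, at 0.32, with Gm6637 at 0.32 and Gm15318 at 0.35. *B3galt5* was nearest to Gm13938 at 0.18, *Myo1f* at 0.30 and *Mtfr2* at 0.30.

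*Daw1* and *Pla2g2d* had no partner as close by this measure, which grows with a gene's own spread over the libraries. Their root mean square difference from a flat profile was 1.07 and 1.23, against 0.6 for both *Cep112* and *Hgf*. The correlation with the nearest gene was 0.89 for *Daw1* and 0.91 for *Pla2g2d*, against 0.98 for *Cep112* and 0.94 for *Hgf*. The nearest to *Daw1* was F830016B08Rik at 0.51, then *Pcyt1b* at 0.57 and *Cc2d2a* at 0.60, and the nearest to *Pla2g2d* was *Lilra5* at 0.51, then *Gpnmb* at 0.54 and *Chp2* at 0.57. Among the 8 genes themselves, *Map2* and *Hgf* were closest at 0.26, and *Cep112* was at 0.29 from each of them. *Pla2g2d* was the farthest from the others, at 0.84 to 1.19.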

How the data were processed

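Per the labels' protocols, the 12 libraries were built from total RNA with a stranded SMARTer kit from Takara. The authors deposited raw read counts per gene symbol, made with CASAVA, STAR 2.3.0e, STAR 2.5.2b and HTSeq 0.6.1p1 on mm9, per the submitters' processing notes; annotation and strand setting are not given in the sources used here. The 5 summary rows of HTSeq, of which reads outside features made up 44.3 to 46.9% of a library, were left out. Of 29806 genes with reads, 12411 passed filterByExpr on the 4 groups. Counts were scaled by TMM and fitted with edgeR 4.0.16 (R 4.3.3), 1 mean per group, robust quasi-likelihood, with Benjamini-Hochberg adjustment over all tested genes at 0.05. CPM are counts scaled to TMM-adjusted library sizes, log2 CPM used a prior count of 2, and log2 fold changes are KO over floxed.

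The members, gene lists and tests were chosen with earlier results of these data known. Named were the 8 genes, of each list up to 4 called genes or else the gene with the smallest p, the 3 genes nearest in profile (mean log2 CPM of at least 1), the flanking protein-coding genes and *Foxp3*. The *Pla2g2d* sex contrast, the X-box with 1 mismatch and the GC and length correction were added after the data were seen. Alternatives were RLE scaling, DESeq2 1.42.0, 2 other filters, the replicate number as a block, plus-strand genes, a myeloid covariate, pairs of libraries left out, and each library left out in turn. Strand, length and GC content come from GENCODE M21 by symbol (54586 of 55453 matched), on a later build than mm9, so gene coordinates are not given. The neighbours come from the order of protein-coding genes in RefSeq. The scripts were tested on simulated counts. Replicates differed beyond counting noise, with chi-square per degree of freedom of 5.04 to 170. Plots were made in Python 3.11.15 using matplotlib 3.10.9.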

Additional observations from a re-analysis of the deposited data

How the results depend on the processing

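The log2 fold changes of the 8 genes kept their direction in KO against floxed under all alternatives run, 21 or 22 for each gene. Over both sexes none moved by more than the spread between replicates. The choice of the genes all but fixed that direction. Every KO library was above every floxed library within both sexes, so leaving libraries out could not reverse it. The counts of called genes, which depend on a threshold, varied widely. Over both sexes 411 genes were called, against 1129 by DESeq2, 1218 with the replicate block, 224 with the myeloid covariate, 44 without female KO libraries 1 and 3, and 98 (without female floxed library 3) to 2940 (without female KO library 2) with a single library left out. It was 785 without male KO library 3, 438 without male floxed library 4, and 103 to 208 without any 1 of the other 8. In males 3 were called, against 235 by DESeq2, 26 without a filter, 11 without female KO libraries 1 and 3, 0 with the block, plus-strand genes, the covariate, the GC correction or without male floxed library 4 and male KO library 2, and 0 to 35 (without male floxed library 4) with 1 library left out. In females 25 were called, against 706 by DESeq2, 94 without a filter, 50 at 5 CPM or more in 3 libraries, 0 with the block, 14 with the covariate, 10 after the GC correction, 0 without female KO libraries 1 and 3, 63 without male floxed library 4 and male KO library 2, and 0 (without any 1 of 8 libraries) to 3089 (without female KO library 2) with 1 left out, 79 without male floxed library 4 among them. The difference between the sexes had 0 calls and 0 to 1108 (without female KO library 2). Among floxed libraries 4 were called, against 59 by DESeq2, 12 without a filter, 7 after the GC correction and 3 to 20 (without female floxed library 2). The added sex contrast had 51, against 2724 by DESeq2, 2173 after the GC correction, 28 at 5 CPM or more, 7 without female KO libraries 1 and 3, 11 without male floxed library 4 and male KO library 2, and 11 to 4280 with 1 left out. The lists had 16, against 30 by DESeq2, 9 without a filter, 27 with the block, 8 with the covariate, 1 without female KO libraries 1 and 3, 8 without male floxed library 4 and male KO library 2, and 2 (without female floxed library 2) to 61 (without female KO library 2) with 1 left out. The cause of these shifts was not tested.

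Among the values of single genes, the following differences between the sexes changed sign. The female minus male difference of the KO effect of *B3galt5* was 0.08, against -0.73 with the block, -0.05 with the covariate, -0.24 without female KO libraries 1 and 3, -0.52 without male floxed library 4 and male KO library 2, and -0.60 to 0.44 with 1 library left out. That of *Pla2g2d* was -0.06, against 0.27 with the block, 0.05 without male floxed library 4 and male KO library 2, 0.06 after the GC correction and -0.35 to 0.71 with 1 left out. That of *Dnah7a* was 0.29, against -0.08 without female KO libraries 1 and 3 and -0.08 to 0.56. Among floxed libraries, female minus male, *Cep112* was at -0.11, against 0.02 with the covariate, and *B3galt5* at 0.10, against -0.08 with the covariate and -0.27 to 0.78. There *Dnah7a* was at 0.24, against -0.03 without male floxed library 4 and male KO library 2 and -0.04 to 0.60, *Igsf9b* at -0.17, against -0.33 to 0.02, and *Daw1* at -0.26, against -0.65 to 0.15. Replicate numbers did not pair the samples: deviations of same-numbered libraries correlated at 0.58 and -0.73 in males and at 0.32, 0.39 and -0.40 in females. With the block, no value can be had for females against males among floxed libraries or over both genotypes. Depth limits *Daw1* most, with 5 reads in its lowest library.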
